A study of Mus musculus with 20 samples.

Results

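The comparison described here is that of female with male hAPOE3 mice in the expression of autosomal genes in the hippocampus. The genes were those on chromosomes 1 to 19 with at least 10 counts in at least 5 of the 10 mice compared, which held for 19360 of the 33119 genes of the deposited table. Another 10515 autosomal genes had fewer counts and were not tested. The 10 mice were 5 females (F.APOE3, mice S144 to S148) and 5 males (M.APOE3, mice S154 to S158). All were homozygous for a targeted replacement of the mouse gene by human APOE3, on a C57BL/6 background, came from 1 supplier (Taconic) and were aged 16 months. The 5 females (F.APOE4, S164 to S168) and 5 males (M.APOE4, S174 to S178) of the same age with human APOE4 entered the model fit and gave a second sex comparison in other mice. The targeted replacement is in every cell, so no cell type was selected by the model. The sources used here do not give the endocrine stage of the females, litters or batches.

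Male and female mice differ in the X and Y chromosomes of every cell and in the hormones of the gonads. Autosomal genes are present in the same dose in both sexes, so that sex differences in their expression are usually studied through hormones and through regulators on the sex chromosomes. The hippocampus forms episodic and spatial memory and is affected early in Alzheimer's disease, for which female sex and the APOE4 allele are known risk modulators. APOE, made mostly by astrocytes, carries cholesterol and other lipids between brain cells, and APOE3 is the common human form.

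The 10 libraries held 35778879 to 52520279 counts, and the sex-linked genes followed the labels in every mouse: Xist, which coats the inactive X chromosome, had 833 to 959 CPM (counts scaled to a common library size, TMM-normalized) in the females and 3.94 to 6.80 in the males, and the Y-linked Ddx3y, Kdm5d, Uty and Eif2s3y did not overlap between the sexes. Of 20 listed hippocampal subfield genes 19 were among the autosomal genes tested. A pair of mice stood apart in marker lists. The male S158 had a score (mean over listed genes of log2 CPM, centred over all 20 mice) of 2.39 for 12 striatal and 1.995 for 12 thalamic genes, against at most 0.888 and -0.0881 in the other 9 mice. The female S144 had a score of 0.784 for border macrophages and of 0.464 for the interferon response, against at most 0.364 and 0.145 in the other 9 mice. List medians that changed sign or moved by over 1.5 times without both mice are also given without them, an alternative chosen after the data were seen.

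Between the sexes 1 autosomal gene was differentially expressed by edgeR's quasi-likelihood test with Benjamini-Hochberg adjustment over all 20739 genes tested, which is 0.00517% of the autosomal genes. That gene, Gm26822, was higher in females. The next smallest adjusted p was 0.0739 and 7 autosomal genes had one under 0.25. An unadjusted p under 0.05 was found for 987 autosomal genes (5.1%), 410 of them higher and 577 lower in females. Over the alternative fits this number ran from 596 without S158 and S144 to 2656 with a score of choroid plexus genes as a covariate. In 133 autosomal genes (0.687%) the 5 females did not overlap the 5 males, 56 with the females above and 77 with the females below. On the X and Y chromosomes 8 genes passed the same test, 3 on the X and 5 on the Y. The DESeq2 Wald test called 13 autosomal genes, 11 higher and 2 lower in females.

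The precision of these data bounds the differences that could have been missed. The median standard error of a log2 fold change was 0.166. For 50.4% of the autosomal genes the 95% confidence interval of the female minus male difference lay within 0.5 of 0 on the log2 scale, and for 86.3% it lay within 1. Among the 15267 genes with a mean log2 CPM above 0 these shares were 63.5% and 95.2%. Over the autosomes the share of genes with an unadjusted p under 0.05 ran from 3.42% on chromosome 14 to 6.73% on chromosome 7, and the median log2 fold change of a chromosome from -0.0545 on chromosome 17 to 0.0405 on chromosome 13.

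The called gene and another of the genes with the smallest p-values hold long runs of a single base, and these stretches are shown because run length is set beside the sex difference below. Of the 10 genes named below as higher in females only Gm26822 has a long run of C or G. The stretches of Gm26822 and Gm19220 are read from the GENCODE M21 transcripts, 5′ to 3′ on the plus strand of GRCm38, with 40 bases on either side and the run in capitals. The stretch of the long intergenic noncoding RNA Gm26822 is chr16:10832610-10832723 and that of the processed pseudogene Gm19220 is chr12:40893681-40893793. Each run lies within a noncoding exon.
Gm26822: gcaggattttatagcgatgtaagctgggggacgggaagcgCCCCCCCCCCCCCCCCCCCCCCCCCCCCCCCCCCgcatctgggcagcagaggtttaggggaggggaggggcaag
Gm19220: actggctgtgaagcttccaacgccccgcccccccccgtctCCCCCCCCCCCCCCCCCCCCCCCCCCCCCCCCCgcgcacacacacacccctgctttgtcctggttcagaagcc

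Gm26822 (chromosome 16, 10827927 to 10833507, plus strand), whose function is not known, was expressed at 85.0, 39.9, 214, 103 and 119 CPM in the females S144 to S148 and at 20.3, 18.3, 17.5, 15.4 and 16.0 CPM in the males S154 to S158. Every female lay above every male, and the females spread over a wide range while the males lay close together. The log2 fold change was 2.68 (standard error 0.29, edgeR adjusted p = 2.67e-05), a 6.43-fold higher level in females. In hAPOE4 mice the females had 15.6 to 23.3 and the males 18.0 to 31.7 CPM, so that the hAPOE3 females stood above all other mice. There the log2 fold change was -0.22 (standard error 0.27, unadjusted p = 0.435), and the difference between the sex gaps of hAPOE4 and hAPOE3 mice was -2.90 (standard error 0.39, edgeR adjusted p = 0.00231). The neighbouring genes lay near 0: Rmi2, which starts downstream on the same strand and belongs to a complex that dissolves recombination intermediates, had a log2 fold change of 0.06 (standard error 0.14), and Socs1, an inhibitor of cytokine signalling on the other side, of -0.13 (standard error 0.37).

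The longest run of C or G in any annotated transcript was then set beside the sex difference for the autosomal genes, a description chosen after the values were seen. Of the genes tested 5 had a run of 26 bases or more, and all 5 were higher in hAPOE3 females with an unadjusted p under 0.05, against 5.1% of all autosomal genes. Gm26822 and Gm19220, whose values were seen first, are among these 5. The median log2 fold change of the 5 genes was 1.36 in hAPOE3 mice, the value of Cdh3, and -0.0481 in hAPOE4 mice, the value of Zrsr1. Cdh3 had 1.58 in hAPOE4 mice. Gm26822, Gm19220, Zrsr1 and Grip2 had 0.60 to 2.68 in hAPOE3 mice and -0.22 to 0.30 in hAPOE4 mice. The 16 genes with a run of 21 to 25 bases had a median of 0.0212, with 2 of them at an unadjusted p under 0.05, and the 17731 genes with a run of at most 10 bases had a median of -0.00344. Only Gm26822 passed the adjusted test.

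Gm19220, with a run of 33 C, had 250, 86.1, 627, 357 and 415 CPM in the females S144 to S148 and 130, 30.2, 76.4, 35.1 and 39.4 CPM in the males S154 to S158. Its log2 fold change was 2.48 (standard error 0.53, adjusted p = 0.201), and the female S145 lay below the male S154. Zrsr1, an imprinted gene for a splicing factor related protein, holds a run of 38 C in the 5′ untranslated part of its transcript and had 83.0, 58.5, 131, 85.1 and 94.9 CPM in the females against 69.8, 56.0, 59.5, 55.0 and 56.5 CPM in the males, a log2 fold change of 0.61 (standard error 0.15, adjusted p = 0.387). Grip2, a scaffold protein that binds AMPA type glutamate receptors, holds a run of 33 G in its 5′ untranslated part and had 78.1, 63.9, 131, 83.5 and 90.4 CPM in the females against 71.8, 52.6, 52.5, 55.8 and 62.7 CPM in the males, a log2 fold change of 0.60 (standard error 0.15, adjusted p = 0.578). In each of these 3 genes 4 of 5 females lay above all males.

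Within the females Gm26822, Gm19220, Zrsr1 and Grip2 put the same mice at the ends: S146 was highest and S145 lowest in each of the 4 genes, and among the males S154 was highest in each. Cdh3, a cadherin of epithelial cells with a run of 27 C in its 3′ untranslated part, kept a different order, with S144 highest, and had a log2 fold change of 1.58 in hAPOE4 mice as well (standard error 0.57, unadjusted p = 0.0112). Its female minus male difference was 1.36 in hAPOE3 mice (standard error 0.58, adjusted p = 0.798). Of the 20 mice S144, S164, S165, S166 and S176 had the highest Cdh3 values, 2.22 to 4.79 CPM. The same mice had the highest scores for choroid plexus genes, 1.81 to 2.77. The other genes with runs of 24 or 25 bases, Tnrc6b, Zeb2os and B230206H07Rik, had log2 fold changes of 0.23, -0.14 and -0.27. S146 was also the library with the fewest counts of the 10, 35778879. Whether the runs have a part in these differences was not tested.

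**Figure D1:**
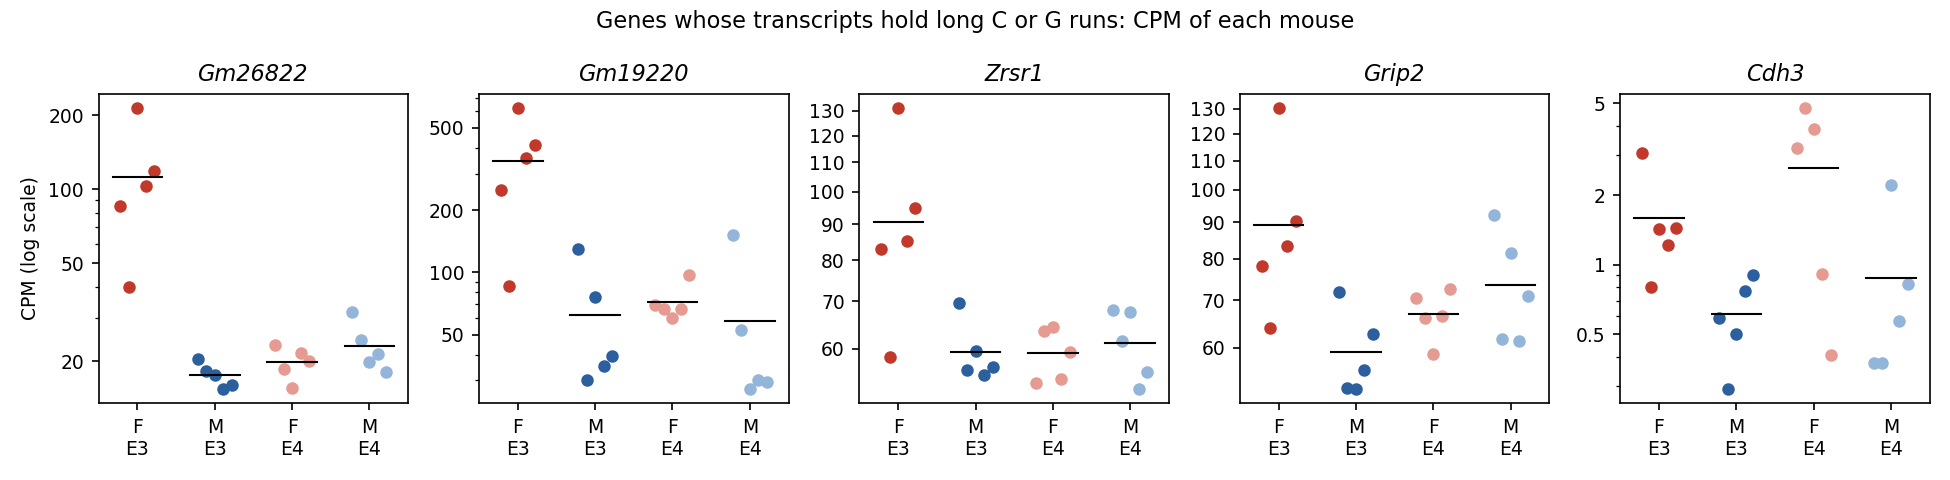
CPM (log scale) of the 5 autosomal genes tested whose transcripts hold runs of 26 or more C or G, with a point for each mouse and a line at the mean of each group of 5 (E3, hAPOE3; E4, hAPOE4). In Gm26822 all 5 hAPOE3 females lie at 39.9 CPM or above and all other mice at 31.7 CPM or below, while Cdh3 is spread over several-fold within the females of both genotypes.

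**Figure D2:**
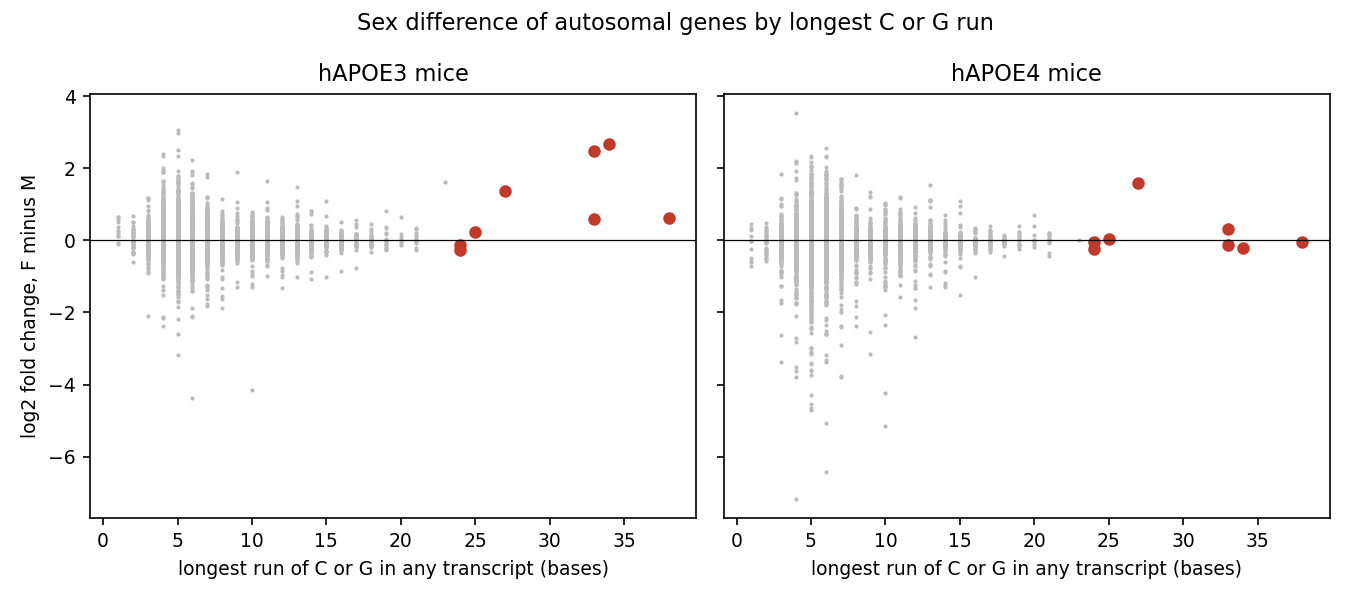
Log2 fold change of females minus males for each autosomal gene against the longest run of C or G in any of its annotated transcripts, in hAPOE3 mice (left) and hAPOE4 mice (right). Genes with a run of 24 or more bases are in red, and the 5 genes with 26 or more bases all lie above 0 in hAPOE3 mice. Of these Gm26822 lies at 2.68 in hAPOE3 and -0.22 in hAPOE4 mice, and Cdh3 at 1.36 and 1.58.

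A second group of genes with small p-values consisted mostly of pseudogenes and small RNA genes, whose counts are uncertain where near-identical copies share their reads. Gm4034 (chromosome 1), a processed pseudogene, had 3.20, 1.20, 6.03, 1.81 and 1.93 CPM in the females S144 to S148 and 0.963, 0.395, 0.9099, 0.554 and 0.812 CPM in the males S154 to S158, without overlap. Its log2 fold change was 1.95 (standard error 0.37, adjusted p = 0.0739). Gm11225 (chromosome 4), also a processed pseudogene, had 8.67, 7.15, 14.9, 4.52 and 5.37 CPM in the females and 2.65, 2.71, 2.945, 2.56 and 2.10 CPM in the males, a log2 fold change of 1.65 (standard error 0.33, adjusted p = 0.110). Olfr729 (chromosome 14), annotated as an odorant receptor, had 3.50 to 7.05 CPM in the females and 0.996 to 3.19 CPM in the males, a log2 fold change of 1.499 (standard error 0.32, adjusted p = 0.211).

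These genes had lower values in females than in males in the hAPOE4 mice. The log2 fold changes there were -1.40 for Gm4034, -1.66 for Gm11225 and -1.45 for Olfr729, and the difference between the sex gaps passed the test in each, at -3.36 (edgeR adjusted p = 0.00680), -3.30 (adjusted p = 0.00231) and -2.95 (adjusted p = 0.00599). In each of the 3 genes the hAPOE4 male S174 lay at or near the hAPOE4 females, at 0.639, 1.98 and 1.21 CPM against at most 0.583, 2.49 and 1.39 in those females, and the other 4 hAPOE4 males lay above, at 1.15 CPM or more for Gm4034, 5.17 or more for Gm11225 and 3.001 or more for Olfr729. Gm43960, Gm25679 and Rn7sk, the last a noncoding RNA that holds back transcription elongation, had log2 fold changes of 1.66, 2.97 and 1.91 in hAPOE3 mice, and their sex gap also differed between the genotypes (edgeR adjusted p = 0.0171, 0.0102 and 0.0396). The female S144 had 0.0727 CPM of Gm25679, inside the male range of 0.0263 to 0.240, while the other females had 1.08 to 1.66. The hAPOE4 males S175 to S178 were also the only mice with high scores for oocyte and early embryo genes, 2.23, 1.42, 1.81 and 1.64, against -0.648 in S174 and at most -0.180 in the other mice. With that score as a covariate the difference between the gaps was -2.64 for Gm4034, -2.13 for Gm11225 and -1.76 for Olfr729, and none of these 3 genes nor Gm43960, Gm25679 or Rn7sk passed the test (edgeR adjusted p = 0.966 for each). For Gm26822 it was -3.33 (standard error 0.46, edgeR adjusted p = 0.0132). In the genes that did not pass, the unadjusted edgeR p with the score ran from 0.000152 for Gm25679 to 0.0124 for Gm43960. Their standard errors were larger with the score, as for Gm4034 (0.53 without and 0.67 with it). The score was high only in hAPOE4 males and so overlaps with the contrast, and this fit cannot separate them. Runs of A were long in some of these genes, 28 bases in Gm4034, 41 in Olfr729 and 51 in Gm43960. Of the 22 autosomal genes with a run of A or T of 41 or more bases 5 had an unadjusted p under 0.05, all 5 higher in females. Olfr729 and Gm43960, whose values were seen first, are among these 5. The share was 5.1% over all autosomal genes, 3.3% at runs of 21 to 30 bases and 8.25% at 31 to 40 bases. The part of the runs was not tested.

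The neighbouring genes Erg28 and Ttll5 on chromosome 12 had lower values in 4 of the 5 hAPOE3 males than in all other mice. Erg28 (85815448 to 85824550, minus strand) is a membrane protein tied to sterol synthesis, and Ttll5 (85824659 to 86061893, plus strand) is a glutamylase that modifies tubulin. They are transcribed away from each other, and their RefSeq starts in GRCm38 lie close together, at 85824893 for Erg28 and 85824920 for Ttll5. The gene spans given above are those of GENCODE M21, which places the starts elsewhere, at 85824550 for Erg28 and 85824659 for Ttll5. The bases from one RefSeq start to the other are shown because these starts bound them. They are read 5′ to 3′ on the plus strand of chr12:85824893-85824920, all in capitals since both ends are RefSeq starts.
Ttll5 and Erg28: GCAGCCGAGCGTTGTTCGCGCCGCTGGC

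Erg28 had 26.4, 24.97, 24.85, 34.4 and 35.5 CPM in the females S144 to S148 and 13.7, 27.2, 15.1, 17.7 and 17.2 CPM in the males S154 to S158. Ttll5 had 35.2, 33.6, 30.3, 31.5 and 25.7 CPM in the females and 15.5, 29.6, 14.8, 16.8 and 19.7 CPM in the males. The male S155 lay among the females in both genes and the other 4 males below every female. All hAPOE4 mice, of both sexes, were at 26.8 CPM or above for Erg28 and at 33.6 CPM or above for Ttll5. The log2 fold changes were 0.69 (standard error 0.15, adjusted p = 0.201) and 0.70 (standard error 0.16, adjusted p = 0.2915). Without S155 they were 0.88 and 0.90. Since these same values set S155 apart, the fit without it is a description and no test of the difference. In hAPOE4 mice the log2 fold changes were -0.01 and -0.07, and the unadjusted p of the difference between the gaps was 0.00278 for Erg28 and 0.002815 for Ttll5. Of the tested genes on either side, Flvcr2, a choline transporter of the brain vasculature, had a log2 fold change of 0.81 (standard error 0.31, adjusted p = 0.798) and also its highest male value, 2.90 CPM, in S155, whereas Tgfb3, a growth factor of the TGF-beta family whose gene overlaps the end of Ttll5 on the other strand, had one of -0.05 (standard error 0.15).

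**Figure D3:**
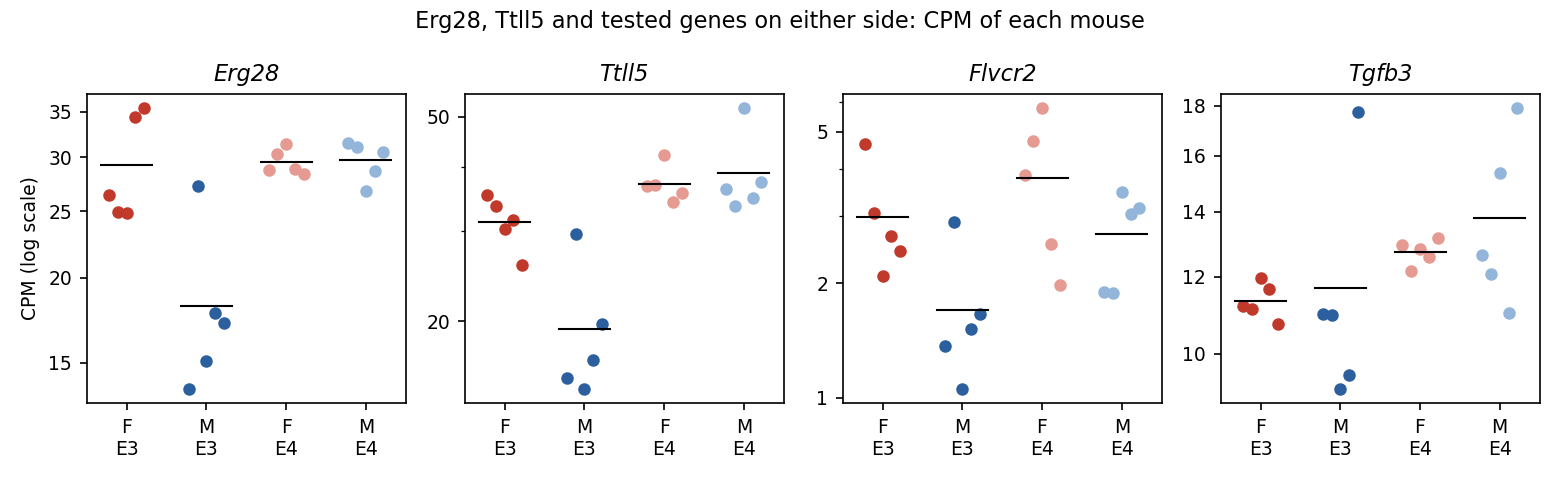
CPM (log scale) of Erg28, Ttll5 and the nearest tested genes on either side, with a point for each mouse and a line at the mean of each group of 5 (E3, hAPOE3; E4, hAPOE4). For Erg28 and Ttll5 4 of the 5 hAPOE3 males lie below every other mouse, at 17.7 CPM or less and 19.7 CPM or less, and the fifth, S155, lies at 27.2 and 29.6 CPM.

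Of the 10 genes with the smallest p-values among those higher in females without overlap, Gm26822, Gm4034, Gm11225 and Olfr729 are described above and none of the other 6 passed the test. Cd36, a scavenger receptor and fatty acid transporter of macrophages and vessels, had 1.99, 2.86, 1.29, 1.25 and 1.38 CPM in the females S144 to S148 and 0.294, 1.16, 1.125, 0.362 and 0.553 CPM in the males S154 to S158, a log2 fold change of 1.33 (standard error 0.35, adjusted p = 0.606). Ifi203, an interferon-inducible nucleic acid sensor of the PYHIN family, had 8.23 to 12.6 CPM in the females and 5.62 to 7.14 in the males, a log2 fold change of 0.62 (standard error 0.17). Ccdc39, which sets the spacing of the arms in motile cilia, had 35.2 to 40.3 CPM in the females and 25.6 to 32.9 in the males, a log2 fold change of 0.37 (standard error 0.10). The noncoding genes AU023762 and Gm29260 and the sperm channel subunit gene Catsperg2 had log2 fold changes of 0.79, 0.63 and 0.81 at mean levels of 1.62 to 2.43 CPM in the females.

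The 10 genes lower in females were of other kinds, and none passed the test. Shisa8, an auxiliary protein of AMPA receptors, had 1.48, 1.53, 1.29, 1.39 and 1.09 CPM in the females S144 to S148 and 2.81, 1.95, 2.08, 2.56 and 2.32 CPM in the males S154 to S158, a log2 fold change of -0.79 (standard error 0.18, adjusted p = 0.2915). Crh, the corticotropin-releasing hormone that starts the stress response and that hippocampal interneurons also make, had 0.878 to 1.33 CPM in the females and 1.35 to 2.41 in the males, a log2 fold change of -0.74 (standard error 0.22). Hapln4, a link protein of the perineuronal net, had 67.8 to 82.5 CPM in the females and 87.6 to 103 in the males, a log2 fold change of -0.35 (standard error 0.09). Pkmyt1, a kinase that holds back entry into mitosis, and Relt, a receptor of the tumour necrosis factor family, had log2 fold changes of -0.98 (standard error 0.25) and -0.70 (standard error 0.21).

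Slc9a3r2, a scaffold protein for membrane transporters and receptors, had a log2 fold change of -0.50 (standard error 0.13) and the zinc finger gene Zfp13 one of -0.36 (standard error 0.10). The pseudogenes Gm7336 and Gm28925 had -0.80 (standard error 0.21) and -2.09 (standard error 0.61), and 1700019D03Rik had -0.26 (standard error 0.08). Gm28925, a short unprocessed pseudogene, was at 0.266, 1.05 and 0.400 CPM in the females S144 to S146, at 5.99 and 6.10 CPM in S147 and S148, and at 7.53 to 16.8 CPM in the males. Gstp2, a glutathione transferase whose near-identical copy Gstp1 could share its reads, lay at 0.143 to 0.513 CPM in the females and 0.508 to 1.90 in the males, a log2 fold change of -1.72 (standard error 0.39, adjusted p = 0.2915).

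The hAPOE4 mice share no animal with this comparison, and give each of the 20 genes a second value. Of the 20 genes 15 had the same sign there, against 64.6% of all autosomal genes, and 4 had the same sign with an unadjusted p under 0.05 (5.44% of all autosomal genes had such a p in hAPOE4 mice). Those 4 were the lower genes Gm7336 (-0.59), Gm28925 (-1.75), 1700019D03Rik (-0.24) and Relt (-0.59). Another 3, Gm4034, Gm11225 and Olfr729, had the opposite sign with an unadjusted p under 0.05. Across all 19360 autosomal genes the 2 sex differences had a Spearman correlation of 0.349, a description over genes that share libraries and are not independent. In the hAPOE4 mice 59 autosomal genes (0.305%) passed the test, 2 of them higher in females. The difference between the gaps passed for 29 autosomal genes (0.15%), in all 29 with the female minus male difference lower in hAPOE4 than in hAPOE3 mice. With the oocyte score as a covariate 1 gene, Gm26822, passed that test, and the 9 tested genes of the oocyte list had a median log2 fold change of -2.59 in hAPOE4 mice.

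**Figure D4:**
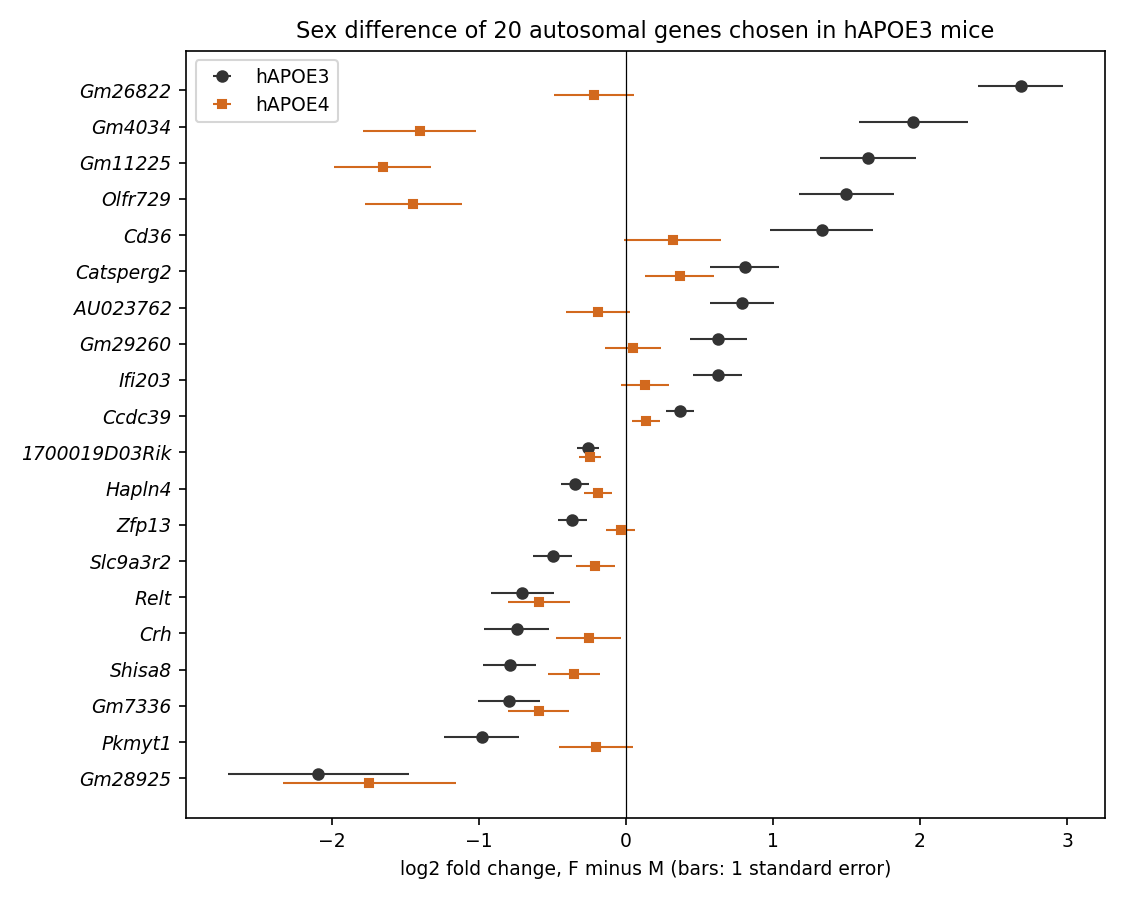
Log2 fold change of females minus males of the 20 autosomal genes with the smallest p-values among those without overlap between the hAPOE3 sexes, in hAPOE3 mice (circles, which chose the genes) and in hAPOE4 mice (squares), with bars of 1 standard error. Of the 20 genes 15 have the same sign in both genotypes, and Gm4034, Gm11225 and Olfr729 lie at 1.499 or above in hAPOE3 mice and at -1.40 or below in hAPOE4 mice.

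The hAPOE3 mice of both sexes fell into separate ranges in genes with short transcripts. A score of 120 genes of complex I (Nduf) and of the cytosolic ribosome (Rpl, Rps) was -0.314, -0.251, -0.332, 0.273 and 0.334 in the females S144 to S148 and -0.218, -0.173, 0.408, 0.434 and 0.402 in the males S154 to S158. Thus 2 of 5 females and 3 of 5 males lay above 0, and no hAPOE3 mouse lay between -0.173 and 0.273, while the 10 hAPOE4 mice lay between -0.200 and 0.0686. The mean was -0.0582 ± 0.332 in the females and 0.171 ± 0.335 in the males (SD, n = 5). The split ran with transcript length over autosomal genes of more than 300 bases. Mice above 0 exceeded those below 0 by a median of 0.205 on the log2 scale in genes with transcripts of 301 to 500 bases and by a median of -0.274 in genes with transcripts over 4000 bases. In the 264 genes of at most 300 bases that median was -0.0103. The labels give no batch that matches it.

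With the score as a covariate the sex difference of short and long genes moved toward 0. The median log2 fold change of the 1448 genes with transcripts over 4000 bases was 0.0852 without and -0.0275 with the score, and that of the 3645 genes of 701 to 1000 bases was -0.0559 and -0.0132. Of the 987 genes with an unadjusted p under 0.05, 413 (41.8%) also had one with the score, where 1194 genes did. The median standard error was 0.151 with the score. Gm26822 stayed past the threshold (log2 fold change 2.62, edgeR adjusted p = 0.000153) and was joined by Gm43960 (1.90, adjusted p = 0.0490). Gm26822 was 2.77 higher in females within the mice above 0 and 2.22 higher within those below 0 on the log2 scale, and Erg28 1.07 and 0.39 higher. Ttll5 was 0.74 and 0.62 higher. For Gm28925 the female minus male difference was -0.684 within the mice above 0 and -4.80 within those below 0. With the score as a covariate the log2 fold change was 1.73 for Gm4034 (edgeR adjusted p = 0.407), 1.38 for Gm11225 (adjusted p = 0.490) and 1.59 for Olfr729 (adjusted p = 0.264).

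The lists of the electron transport chain and the ribosome, which hold the score's own genes and the other complexes, had medians near 0 with the score. The medians of the striatal, red cell, T cell and choroid plexus lists moved further with it, from -0.803 to -0.312, from 0.00471 to -0.326, from -0.383 to -0.0988 and from 1.28 to 1.56. Of 34 tested autosomal Nduf genes, which pass electrons from NADH to ubiquinone, 0 were higher in females, with a median log2 fold change of -0.200 that became -0.00710 with the score and -0.0991 without S144 and S158. Of 80 Rpl and Rps genes 78 were lower, with a median of -0.250 that became -0.0156 with the score and -0.132 without both mice. Of 40 nuclear genes of complexes II to V 37 were lower, with a median of -0.183 that became 0.0241 with the score and -0.0755 without both mice. Over all autosomal genes 49.5% were higher in females and the median was -0.00279. The smallest p-values among these lists belonged to Rps6 (log2 fold change -0.32, standard error 0.13, unadjusted p = 0.0232) and Rps14 (-0.41, standard error 0.17, unadjusted p = 0.0234), to Ndufb8 (-0.36, standard error 0.18) and Ndufs8 (-0.35, standard error 0.18), and to Cox7a2l, which joins complexes III and IV (-0.27, standard error 0.13) and Atp5g2, a subunit of the ATP synthase ring (-0.46, standard error 0.23). None of these lists held a called gene, and 7 ribosomal and 0 Nduf genes had an unadjusted p under 0.05.

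**Figure D5:**
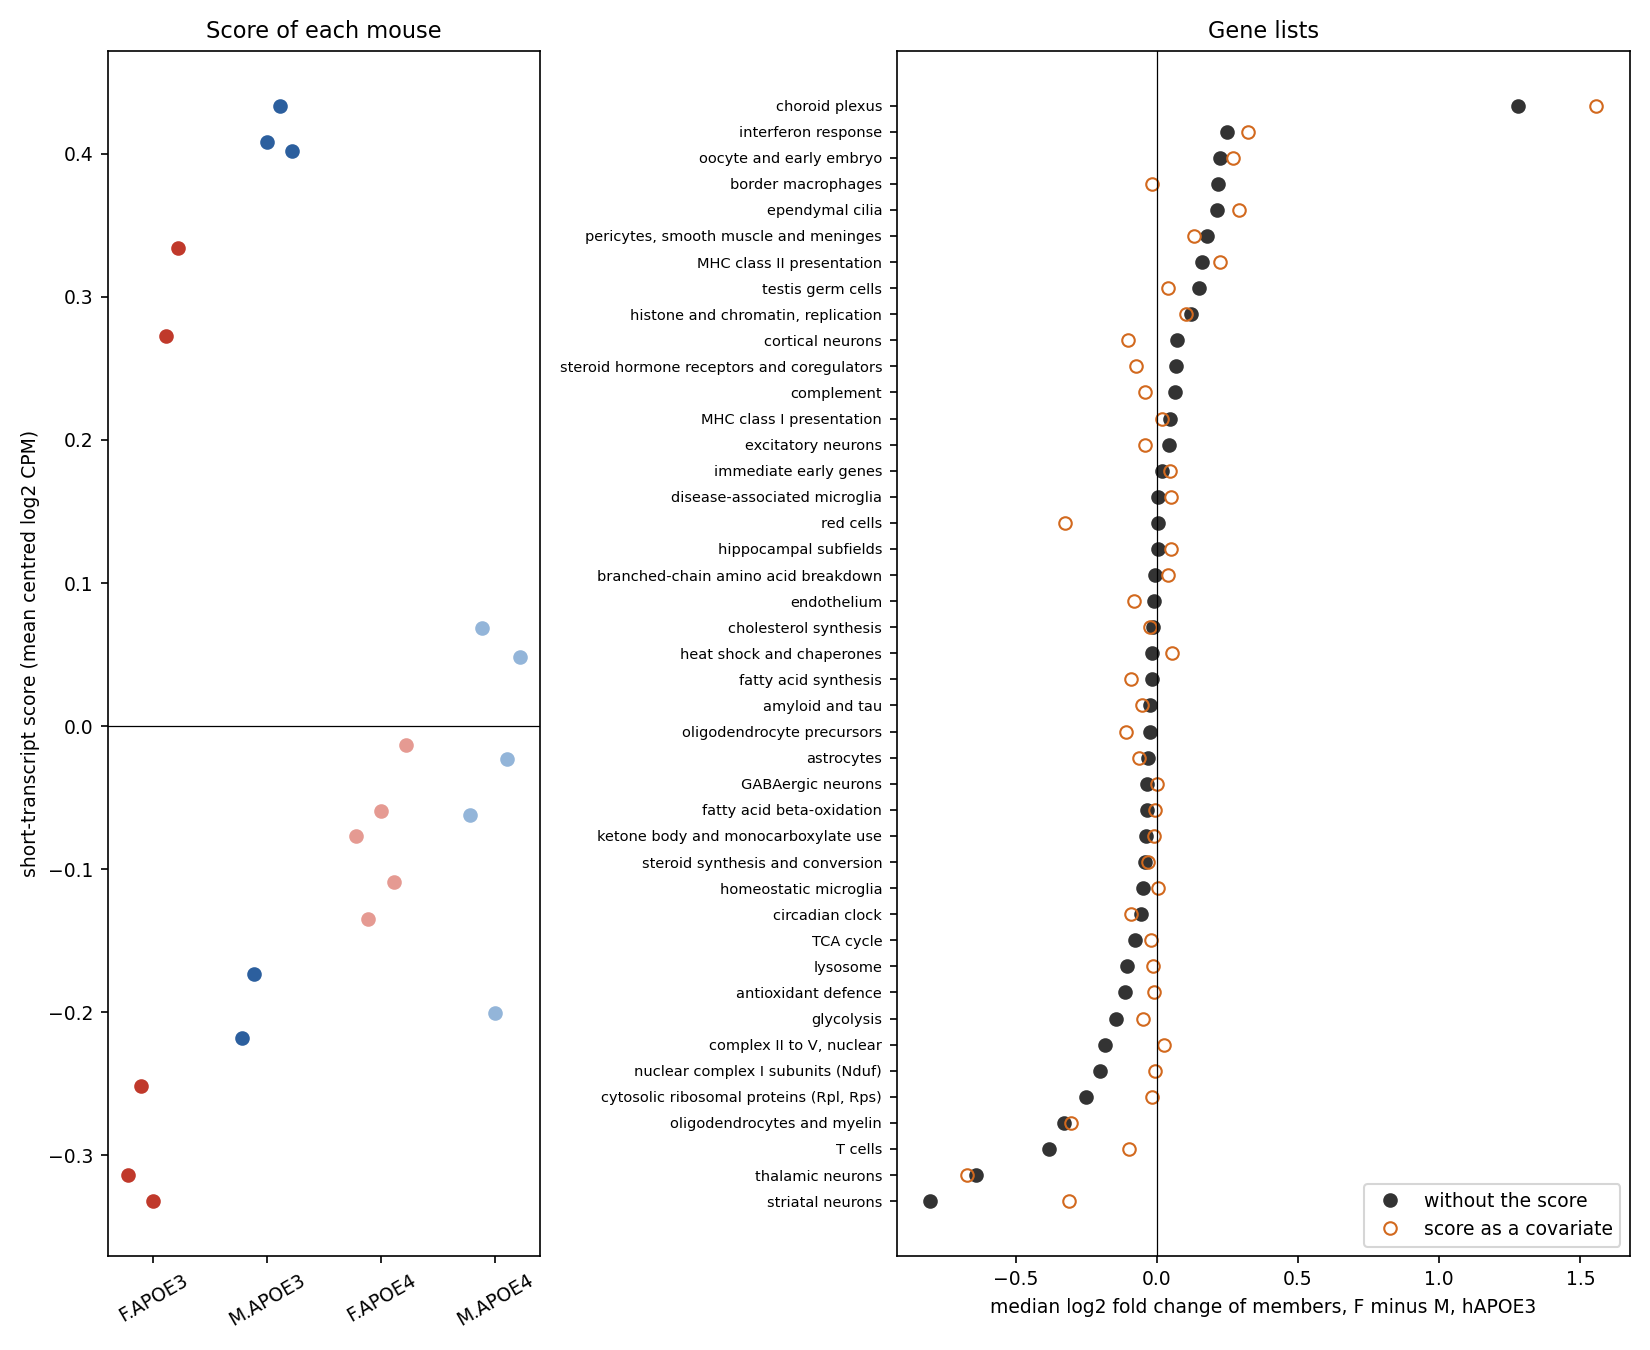
Left, the short-transcript score of each mouse (mean log2 CPM of Nduf, Rpl and Rps genes, centred per gene) by group, in which no hAPOE3 mouse lies between -0.173 and 0.273. Right, the median log2 fold change of females minus males in hAPOE3 mice for each gene list, without (filled) and with (open) the score as a covariate; the Nduf median goes from -0.200 to -0.00710 and the choroid plexus median from 1.28 to 1.56.

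Genes of fuel use mostly had slightly lower values in females, and their medians lay nearer to 0 with the same score. Of 19 glycolysis genes 17 were lower, with a median log2 fold change of -0.144, -0.0476 with the score and -0.0959 without S144 and S158. Ldhb, which turns lactate into pyruvate, had -0.40 (standard error 0.17, unadjusted p = 0.0264) and -0.16 with the score, and Pkm, which makes pyruvate, had -0.21 (standard error 0.12). Of 21 TCA cycle genes 19 were lower, with a median of -0.0759 and -0.0217 with the score. Mdh1 and Pcx, which interconvert and supply oxaloacetate, had -0.19 (standard error 0.10) and -0.23 (standard error 0.13). Of these 40 genes 0 were called and Ldhb alone had an unadjusted p under 0.05.

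Medians of lipid and alternative fuel genes lay near 0 without the short-transcript score as a covariate. Of 30 fatty acid beta-oxidation genes 12 were higher and 18 lower, with a median of -0.0345 (-0.0112 without S144 and S158), and of 20 cholesterol synthesis genes 10 were higher and 10 lower, with a median of -0.0137 (-0.0514 without both mice). The beta-oxidation enzymes Echs1 and Ehhadh had -0.15 (standard error 0.08) and -0.25 (standard error 0.14), and the mevalonate pathway enzymes Mvd and Pmvk -0.34 (standard error 0.14) and -0.33 (standard error 0.17). Of 16 fatty acid synthesis genes 10 were lower, with a median of -0.0162 (-0.0910 with the score and -0.0262 without both mice). Srebf1, the regulator of that pathway, had -0.32 (standard error 0.14) and -0.41 with the score. Elovl4, which makes very long chain fatty acids, had 0.21 (standard error 0.10). Of 10 genes of ketone body and monocarboxylate use 6 were lower, with a median of -0.0374. Acat2, a thiolase, had 20.7 to 29.0 CPM in the females and 29.6 to 36.6 in the males, without overlap (log2 fold change -0.27, standard error 0.10, adjusted p = 0.798), and Bdh1, which interconverts ketone bodies, had -0.20 (standard error 0.10). Of 17 genes of branched-chain amino acid breakdown 8 were higher, among them Hibch (0.16, standard error 0.10), while Bckdha had -0.29 (standard error 0.15). The median was -0.00691 (0.0382 with the score and 0.0410 without both mice).

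Receptors and enzymes of steroid hormones, the signals that most directly differ between the sexes, held no called gene. Of 21 receptor and coregulator genes 15 were higher in females with a median log2 fold change of 0.0685, which became -0.0750 with the short-transcript score and 0.0152 without S144 and S158. Prlr, the listed gene with the smallest p, is the receptor of prolactin, which is not a steroid. It had 72.8, 28.1, 6.91, 36.4 and 33.1 CPM in the females S144 to S148 and 4.58, 7.67, 6.15, 10.8 and 18.0 CPM in the males S154 to S158. Its log2 fold change was 1.90 (standard error 0.67, edgeR unadjusted p = 0.00959). Prlr is strongly expressed in the choroid plexus and stands in both lists, and the female with the lowest value, S146, was also the female with the lowest choroid plexus score. Esrra, an orphan receptor for mitochondrial genes, had -0.28 (standard error 0.12). Of 16 steroid synthesis and conversion genes 7 were higher, with a median of -0.0427; Star, which brings cholesterol into mitochondria, had 0.21 (standard error 0.09) and Hsd17b11, a steroid dehydrogenase, -0.15 (standard error 0.07).

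Among immune genes the interferon list had the most members above 0. Of 30 interferon response genes 29 were higher in females, with a median log2 fold change of 0.2498, 0.323 with the short-transcript score and 0.198 without S144 and S158; in hAPOE4 mice 14 of 30 were higher and the median was -0.0154. None was called and 3 had an unadjusted p under 0.05. The list scores overlapped, from -0.395 to 0.464 in the females, the highest being S144, and from -0.5185 to -0.09295 in the males. Oas2, which makes the messenger that turns on RNase L, had 3.46, 1.66, 1.54, 2.03 and 2.16 CPM in the females and 1.07, 0.949, 1.51, 0.916 and 2.18 CPM in the males, a log2 fold change of 0.71 (standard error 0.27), and Trim30a, a regulator of innate signalling, had 0.52 (standard error 0.21) without overlap.

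Of 15 class I presentation genes 9 were higher, with a median of 0.0484 (-0.00924 without S144 and S158), and of 10 class II genes 6, with a median of 0.159 (0.375 without both mice). Cd74, the invariant chain of class II molecules, had 0.64 (standard error 0.49) and H2-Oa 0.33 (standard error 0.29); Nlrc5, which turns on class I genes, had 0.32 (standard error 0.21) and H2-T22 -0.22 (standard error 0.14). Of 18 complement genes 12 were higher, with a median of 0.0645, which became -0.0431 with the score and -0.0379 without S144 and S158. The complement score was highest in S144 (0.488) and next in S158 (0.248). Itgax, a subunit of complement receptor 4, had 1.09 (standard error 0.39, unadjusted p = 0.0106) and 1.54 in hAPOE4 mice, and Cd55, which breaks up the C3 convertase, 0.54 (standard error 0.23).

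In hAPOE3 mice microglial lists were near 0 as a whole, with Clec7a at the head of the disease-associated list. Of 21 disease-associated genes 11 were higher, with a median of 0.00478 (0.0289 without S144 and S158). Of 15 homeostatic genes 6 were higher, with a median of -0.0482 (0.00451 with the short-transcript score). Clec7a, the beta-glucan receptor dectin-1 of reactive microglia, had 2.11, 1.78, 2.06, 1.05 and 1.64 CPM in the females S144 to S148 and 0.883, 0.817, 0.814, 0.852 and 1.22 CPM in the males S154 to S158. All females but S147 lay above all males, and the log2 fold change was 0.90 (standard error 0.23, adjusted p = 0.578). In hAPOE4 mice it was 1.28 (standard error 0.23, edgeR adjusted p = 0.00925), so that Clec7a passed the test there. In hAPOE4 mice 17 of the 21 disease-associated genes were higher in females, with a median of 0.192. Of the 15 homeostatic genes 9 were higher there, with a median of 0.0457. Over all autosomal genes 47.6% were higher in hAPOE4 females. Trem2, a lipid receptor of microglia, had -0.39 (standard error 0.21) and -0.13 with the short-transcript score, and Selplg, the ligand of selectins, -0.25 (standard error 0.12). In bulk tissue fewer cells of a type and less RNA per cell cannot be told apart, here and for the cell lists that follow.

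Oligodendrocyte genes had lower values in females. Of 20 genes 19 were lower, with a median log2 fold change of -0.329, and 4 had an unadjusted p under 0.05 but 0 were called. Mog, a protein of the outer myelin surface, had 40.5 to 60.8 CPM in the females and 49.2 to 114 in the males (log2 fold change -0.49, standard error 0.19), and Opalin, a membrane protein of oligodendrocytes, had -0.54 (standard error 0.23). The list score ran from -0.332 to 0.138 in the females and from -0.280 to 0.778 in the males, the highest being S158, and without S158 and S144 the median was -0.208. In hAPOE4 mice 18 of 20 genes were lower, with a median of -0.156. There 1 male, S176, stood apart with a list score of 0.721. The other hAPOE4 males had scores of -0.230 to 0.02845, within or below the range of the hAPOE4 females, -0.166 to 0.0953. The precursor list had 4 of 8 genes higher, with a median of -0.0252 (-0.107 with the short-transcript score and 0.00746 without both mice). Its genes Enpp6 and Bcas1, which mark cells that start to myelinate, had -0.33 (standard error 0.20) and -0.41 (standard error 0.29), the latter 0.0604 without S158 and S144.

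Astrocyte and endothelial lists showed no lean: 8 of 18 and 8 of 16 genes were higher, with medians of -0.0305 and -0.00966, the latter -0.0248 without S144 and S158. With the short-transcript score these medians were -0.0627 and -0.0819. S100b had -0.30 (standard error 0.19) and Aldh1l1 -0.15 (standard error 0.12) among astrocyte genes, and Tie1 -0.29 (standard error 0.15) and Ly6c1 -0.26 (standard error 0.14) among endothelial genes. Of 18 excitatory neuron genes 10 were higher (median 0.0428, -0.0414 with the short-transcript score and -0.0716 without both mice). Rbfox3 had -0.18 (standard error 0.13) and Homer1 0.32 (standard error 0.27). Of 18 GABAergic genes 8 were higher (median -0.0334, 0.00160 with the score and -0.0835 without both mice). Pvalb, the calcium buffer of fast-spiking interneurons, had 25.3, 32.4, 27.3, 41.5 and 38.6 CPM in the females and 32.1, 31.9, 50.3, 74.1 and 101 CPM in the males S154 to S158, a log2 fold change of -0.81 (standard error 0.27, unadjusted p = 0.00631) and -0.45 with the score. The highest value was that of S158, the male with thalamic and striatal markers. Reln had 0.40 (standard error 0.22) and 0.04 with the score.

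Of the 19 subfield genes of the hippocampus 10 were higher, with a median of 0.00318 (0.00909 without S144 and S158). Bok, a relative of BCL2 that marks CA3, had 19.3 to 34.8 CPM in the females and 30.1 to 48.7 in the males (log2 fold change -0.56, standard error 0.17, unadjusted p = 0.00414), and Man1a, a mannosidase, had 65.2 to 74.3 CPM in the females and 28.9 to 61.5 in the males, without overlap (0.52, standard error 0.20). Of 18 immediate early genes 11 were higher, with a median of 0.0199 (-0.0695 without both mice), Homer1 standing in this list too and Ier3 having -0.34 (standard error 0.29). Cortical neuron genes had a median of 0.0703 (-0.101 with the short-transcript score and -0.00619 without both mice). Lamp5 had -0.56 (standard error 0.27) and Nr4a2 0.55 (standard error 0.28).

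Markers of neighbouring tissues gave the largest medians and the widest spread between mice. Of 13 choroid plexus genes 13 were higher in females, with a median log2 fold change of 1.28, but 0 were called. The choroid plexus score was 2.12, 0.678, -2.13, 0.937 and 1.425 in the females S144 to S148 and -2.26, -1.99, -1.945, 0.509 and 1.00 in the males S154 to S158, so 4 of 5 females and 2 of 5 males lay above 0. Ttr, the thyroxine carrier made by the choroid plexus, had 37.4 to 3665 CPM in the females and 43.4 to 3158 in the males (log2 fold change 0.96, standard error 1.295). Kl, the ageing hormone klotho, had 1.32 (standard error 0.57). In hAPOE4 mice the 13 genes were also higher in females, with a median of 1.85. The share of dissected choroid plexus and expression within it cannot be told apart.

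Thalamic and striatal genes had lower values in females, 12 of 12 and 11 of 12, with medians of -0.642 and -0.803. Without S158 and S144 these medians were -0.00884 and 0.224. Tnnt1 and Ramp3 of the thalamic list had -2.60 (standard error 1.02) and -1.82 (standard error 0.69), the highest male values being 20.01 and 43.9 CPM, and Adora2a and Rgs9 of the striatal list, a receptor and a signalling regulator of the basal ganglia, had -1.69 (standard error 0.82) and -0.92 (standard error 0.45). The T cell list had 4 of 6 genes lower, with a median of -0.383 and 0.125 without both mice; Trbc2 had -1.85 (standard error 0.71), with 10.1 CPM in the male S157, and Cd4 -1.63 (standard error 0.79), with 11.1 CPM in the male S158.

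Of 11 border macrophage genes 7 were higher (median 0.216, -0.0176 with the short-transcript score and 0.0240 without S144 and S158). F13a1 had 0.48 (standard error 0.37) and Lyve1 0.59 (standard error 0.49). Of 15 genes of pericytes, smooth muscle and meninges 10 were higher (median 0.177, and 0.278 without both mice), with Kcnj8, a potassium channel of pericytes, at -0.41 (standard error 0.15) and Dcn, a proteoglycan of fibroblasts, at 0.67 (standard error 0.29). Of 14 genes of ependymal cilia 10 were higher (median 0.214), with Rsph4a at 0.38 (standard error 0.19) and Spag6l at 0.24 (standard error 0.14). Of 6 red cell genes 4 were higher (median 0.00471, and -1.74 without both mice), with Bpgm, an enzyme that sets oxygen release in red cells, at -0.21 (standard error 0.11). Of 9 tested oocyte genes 5 were higher (median 0.225, and 0.0745 without both mice), with Khdc3 at 0.65 (standard error 0.23) and Tle6 at -0.50 (standard error 0.24), and of 3 testis genes 3 were higher (median 0.148, and 0.0501 without both mice), with Acrv1 and Sycp3 at 0.15 each (standard error 0.23).

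Among the remaining lists most clock and antioxidant genes had lower values in females. Of 19 clock genes 14 were lower, with a median of -0.0542 and -0.130 in hAPOE4 mice. Dbp, an output regulator of the clock whose level swings over the day, had 64.8, 54.0, 56.7, 74.0 and 70.1 CPM in the females S144 to S148 and 83.5, 62.2, 89.0, 102 and 104 CPM in the males S154 to S158. The male S155 lay inside the female range and the others above it, and the log2 fold change was -0.46 (standard error 0.12, adjusted p = 0.606), and -0.35 in hAPOE4 mice (unadjusted p = 0.00998). Ciart, a repressor in the same clock, had -0.50 (standard error 0.17). The time of day of dissection was not given in the sources used here.

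Of 28 antioxidant genes 21 were lower, with a median of -0.113, -0.00809 with the short-transcript score and -0.0456 without S144 and S158, and 4 had an unadjusted p under 0.05, Srxn1 at -0.24 (standard error 0.09) and Gpx1 at -0.43 (standard error 0.20) and -0.15 with the score. Of 28 amyloid and tau genes 17 were lower (median -0.0242, and -0.0369 without both mice). Mapt, the gene of tau, had 465 to 497 CPM in the females and 519 to 560 in the males, without overlap, a log2 fold change of -0.15 (standard error 0.07, adjusted p = 0.798), and Apbb1, an adaptor of the amyloid precursor protein, had -0.23 (standard error 0.10). Of 26 lysosomal genes 22 were lower (median -0.105, and -0.0123 with the score), with Ctss at -0.16 (standard error 0.09) and Tfeb at -0.32 (standard error 0.21). Of 24 heat shock genes 13 were lower (median -0.0155, 0.0538 with the score and 0.0407 without both mice). Cryab had -0.39 (standard error 0.22) and Pdia4 0.21 (standard error 0.12). Of 12 chromatin and replication genes 8 were higher (median 0.121, and -0.0202 without both mice), with Sox11, a factor of newborn neurons, at 0.24 (standard error 0.09) and Cdk1 at 0.70 (standard error 0.37). In each of these lists 0 genes were called.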

How the data were processed

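RNA-seq was performed on bulk hippocampus of 20 mice, 5 in each group of sex and APOE genotype; each sample is a separate mouse, and mice were dissected after saline perfusion. The authors enriched polyA RNA, sequenced paired-end reads, mapped them to mouse cDNA with Salmon 0.91 (version per the submitters' processing notes) and summed them per gene with tximport. The deposited estimated counts were whole numbers and entered the fit as deposited. The authors' second table holds signal values, namely counts normalized with DESeq2 by a factor of each gene and mouse, which served only as an alternative.

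Genes with 10 or more counts in at least 5 of the 10 hAPOE3 mice were kept. Of 33119 genes 31064 were matched by symbol to GENCODE M21 (GRCm38) and 153 to RefSeq only, 1902 were not matched, and 6 matched several chromosomes. edgeR 4.0.16 (R 4.3.3) fitted a quasi-likelihood model with TMM normalization to all 20 mice with a mean per group, at an adjusted p threshold of 0.05 (Benjamini-Hochberg over all genes tested). A standard error was the log2 fold change divided by the root of the F statistic, and log2 CPM for scores used a prior count of 2. The fit was tested on simulated data. DESeq2 1.42.0, limma 3.58.1 (pseudocount 1), other filters and normalizations, covariates and leaving out mice were alternatives. Among 45 pairs of hAPOE3 mice the lowest ratio of chi-square to its degrees of freedom was 13.2, far above sampling noise, and all mice were kept as separate samples.

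Named were the called genes, the 10 higher and 10 lower with the smallest p among genes whose sexes did not overlap and whose average log2 CPM exceeded 0, and the 2 members of each list with the smallest p. Some genes that these rules or choices would name are not reported here. Gm19220, Zrsr1, Cdh3, Grip2, Erg28, Ttll5, Gstp2, Gm43960, Gm25679, Rn7sk, Ttr and the neighbouring genes were chosen after their values were seen, as was the comparison with runs of a base. The genes compared and the lists were chosen with earlier results of these data known. Transcript sequences and gene spans were from GENCODE M21, and the starts that bound the stretch of Erg28 and Ttll5 were from RefSeq.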

Additional observations from a re-analysis of the deposited data

Results flagged for a closer look

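In 6 of 74 groups of 5 mice tested, 1 mouse lay far from the others by Dixon's criterion at the 95% level, which chance gives in about 1 in 20 groups. Among the females these were S146 for Ccdc39 (35.2 CPM, the next 38.8) and for Ttr (37.4 CPM, the next 1222), and S144 for Gm25679 (0.0727 CPM, the next 1.08). Among the males they were S157 for Pkmyt1 (4.03 CPM, the next 2.90) and S158 for Relt (16.1 CPM, the next 10.8) and for Tgfb3 (17.75 CPM, the next 11). Genes named only as members of a list were not part of these groups, so the share does not cover them. In some of them 1 mouse also lay far off. The male S158 had 82.6 CPM of Rgs9 (the next male 12.7) and 32.65 CPM of Adora2a (the next 1.92).

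The female minus male difference was lower in hAPOE4 than in hAPOE3 mice, by the test of the difference itself, in 7 of the named genes. The difference between the gaps on the log2 scale was -2.90 for Gm26822 (edgeR adjusted p = 0.00231), -3.36 for Gm4034 (adjusted p = 0.00680), -3.30 for Gm11225 (adjusted p = 0.00231) and -2.95 for Olfr729 (adjusted p = 0.00599). It was -2.885 for Gm43960 (adjusted p = 0.0171), -5.42 for Gm25679 (adjusted p = 0.0102) and -3.39 for Rn7sk (adjusted p = 0.0396). The oocyte and early embryo score was high only in the hAPOE4 males S175 to S178 (1.42 to 2.23). The median log2 fold change of that list in hAPOE4 mice was -2.59. Gm26822 did not follow the score, with 31.7 CPM in the low-scoring male S174 and 17.98 to 24.25 CPM in S175 to S178. Gm25679 followed it only in part, with 1.17 CPM in S174 and 0.732 to 4.32 CPM in S175 to S178. With that score as a covariate Gm26822 alone of the 7 passed the test, at -3.33 (edgeR adjusted p = 0.0132), and the other 6 had values of -5.12 to -1.62 (adjusted p = 0.966 for each). The unadjusted edgeR p of these 6 ran from 0.000152 to 0.0124. The score overlaps with the contrast, and this fit cannot separate them.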

How the results depend on the processing

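Gm26822 passed the threshold in all 21 alternatives, with a log2 fold change of 2.315 to 2.91 and a highest edgeR, DESeq2 or limma adjusted p of 0.0403. The count of 1 called autosomal gene became 13 with DESeq2, 6 with the choroid plexus score, 3 with the oocyte score and 2 with the short-transcript score as a covariate, 2 without S158 and S144, and 1 to 5 when 1 mouse was left out. It was 5 without S145 (Gm19220, Gm4034 and Zrsr1 among those added), 3 without S147 (Gm11225 and Gm4034), 3 without S155 (Erg28 and Ttll5), and 2 without S144 (Gm25679), S156 (Olfr729) or S157 (Gm2956). The count of 29 for the difference between the gaps became 47 with DESeq2, 12 with limma on the normalized counts and 1 with the oocyte score, and 22 to 26 when 1 mouse was left out. The number of autosomal genes with an unadjusted p under 0.05, 987 in the main fit, also moved. It was 2656 with the choroid plexus score as a covariate, 1875 without S147, 1833 without S155 and 596 without S158 and S144. The causes were not tested.

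Of the named genes 14 changed sign in 24 fits, none past the threshold. Without S158 and S144 the log2 fold change was -0.0002958 for F13a1, 0.0604 for Bcas1, 0.70 for Cd4, 0.3125 for Rgs9, 0.709 for Adora2a, -0.00763 for Sycp3 and 0.1615 for Tgfb3. With the choroid plexus score it was -0.01305 for Lyve1 and -0.406 for Ttr. With the short-transcript score it was -0.0661 for Sycp3, and with that score in a fit of only hAPOE3 mice -0.1015 for Sycp3 and -0.0278 for Homer1. With limma it was 0.0119 for Socs1. When 1 mouse was left out the log2 fold change ran from -0.0447 to 0.859 for Lyve1, from -0.555 to 0.0528 for Bcas1, from -0.4795 to 0.0126 for Ier3, from -2.26 to 0.664 for Cd4, from -1.20 to 0.231 for Rgs9, from -2.54 to 0.578 for Adora2a, from -0.0272 to 0.277 for Acrv1, from -0.299 to 0.1835 for Socs1, from -0.0125 to 0.129 for Rmi2 and from -0.120 to 0.157 for Tgfb3. Of 86 list medians, taken with the short-transcript score or from only hAPOE3 mice, 1 moved by over 1 SD. It was that of the steroid hormone receptors (-0.0750 with the short-transcript score). The SD was that of a list's mouse scores within the hAPOE3 sexes, which includes the short-transcript split. Moves with the score from -0.250 to -0.0156 for Rpl and Rps genes and from 0.216 to -0.0176 for border macrophages stayed under it.

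No paired analysis was possible because the labels give no replicate number that the groups share. The number of mice, 5 a sex, and low counts limit the precision, and the endocrine stage of the females cannot be told apart from sex.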
